A study of Mus musculus with 9 samples.

Results

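The loss of Myt1 was set directly against the loss of LSD1 in Neuro2a cells, with the control arrays left out of the test. The samples were all the arrays titled siMyT1 and all those titled siLSD1, 6 of the 9 arrays in the series, with 3 in each group. Neuro2a is a mouse neuroblastoma line, and its cells were exposed to siRNA for 48 h. In the siMyT1 group it targeted Myt1, and in the siLSD1 group it targeted Kdm1a, which encodes LSD1. The other 3 arrays came from cells given a control siRNA (siControl) for the same time. No genetic change besides those of the line itself is given in the labels for any group, and 1 line and 1 siRNA name per target limit the model. The series has Myt1 as a subunit of a neural LSD1 complex as its subject. The direct comparison asks in which families of genes the effects of removing either protein are unlike. Total RNA was hybridised to a 1-colour array with 45101 probe sets, and 34945 of these carried a single gene symbol and entered the fit. They name 18193 genes, each given by its brightest probe set.

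Myt1 binds DNA through zinc fingers and acts in developing neurons. LSD1 is a demethylase that takes methyl groups off histone H3, and it works in complexes with CoREST proteins and histone deacetylases that repress genes, including neuronal genes in other cell types. Neuroblastoma cells descend from the sympathoadrenal lineage of the neural crest, which makes catecholamines and stores them, with granins, in dense-core vesicles. Such cells divide while keeping many neuronal transcripts, so genes of the cell cycle and genes of the neuron can be read from 1 culture.

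Values are deposited intensities on a linear scale whose unit is not given in the sources used here, called units below. A log2 difference is the siMyT1 mean minus the siLSD1 mean of log2(intensity + 0.2 units), so a positive value means a higher level in siMyT1, and it understates the change of dim genes. It is printed with its standard error. A gene was called where its adjusted p, from limma with Benjamini-Hochberg adjustment over all 34945 probe sets, was under 0.05. A verb such as "higher" here compares the knockdowns with each other only. The siControl level beside a gene is a mean ± SD over 3 arrays and was not tested.

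Each siRNA target was low in its own group. Myt1 measured 0.625, 0.882 and 0.474 units on the siMyT1 arrays and 7.09, 7.59 and 6.16 units on the siLSD1 arrays. The log2 difference was -3.08 ± 0.17 (adjusted p = 1.44e-05), and siControl stood at 4.90 ± 0.342 units. A dimmer Myt1 probe set had a mean of 0.0733 units over the 6 arrays and was not called (log2 difference 0.01 ± 0.19). Kdm1a measured 29.9, 30.1 and 32.8 units in siMyT1 and 4.80, 4.05 and 4.63 units in siLSD1, a log2 difference of 2.73 ± 0.08 (adjusted p = 2.12e-07). Its siControl level was 29.0 ± 1.02 units, and its other probe set gave 3.72 ± 0.10. No array of either group overlapped the other group for these brighter probe sets. Myt1l, a paralogue of Myt1 named here after its values were seen, measured 1.27, 1.41 and 1.48 units in siMyT1 and 3.23, 3.24 and 2.61 units in siLSD1. Its log2 difference was -1.02 ± 0.12 (adjusted p = 0.00079), against 2.06 ± 0.0355 units in siControl.

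Of the 18193 genes, 1901 (10.4%) were called higher in siMyT1 and 850 (4.67%) were called lower. These shares are the background for the family counts as deposited. Over all probe sets 8.40% were called higher and 4.17% lower. Among genes with a mean of at least 0.5 units, where most of these families lie, the shares were 16.9% and 7.95%. At least 1.5-fold apart were 682 of the genes called higher and 281 of those called lower, and at least 2-fold apart were 122 and 55. The arrays of the groups did not overlap for 23.3% of genes with siMyT1 above and for 9.70% with siMyT1 below. Without siMyT1 replicate 3 the counts were 989 higher and 611 lower, without siMyT1 replicate 2 they were 1030 and 658, and without siLSD1 replicate 3 they were 1052 and 506. Without siLSD1 replicate 1 there were 557 lower.

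The split between directions moved with the scaling of the arrays. As deposited, 69.1% of calls were higher in siMyT1, after quantile normalization 55.5% were, and after centring each array on its median 40.0% were. The median log2 difference over all genes was 0.09 as deposited, 0.01 after quantile normalization and -0.05 after centring, and family medians below are to be read against 0.09. The siMyT1 arrays had median intensities from 0.305 to 0.424 units and the siLSD1 arrays from 0.302 to 0.321. Probe sets for 18S ribosomal RNA averaged 2.15 to 2.75 units in siMyT1 and 1.20 to 1.74 in siLSD1. The control probe set for the murine B1 element ran the other way, from 103 to 108 units in siMyT1 and from 119 to 123.3 in siLSD1. The ratio of the 3' to the 5' actin probe set, a sign of RNA integrity, was 1.108 to 1.117 in siMyT1 and 1.1197 to 1.227 in siLSD1, while that of Gapdh overlapped (0.787 to 0.801 and 0.786 to 0.817). The part of these measures in the results was not tested. Because of the scaling, each count of a whole family is given with the counts under both other scalings, while counts of marker lists and of roles within a family are as deposited unless stated.

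**Figure D1:**
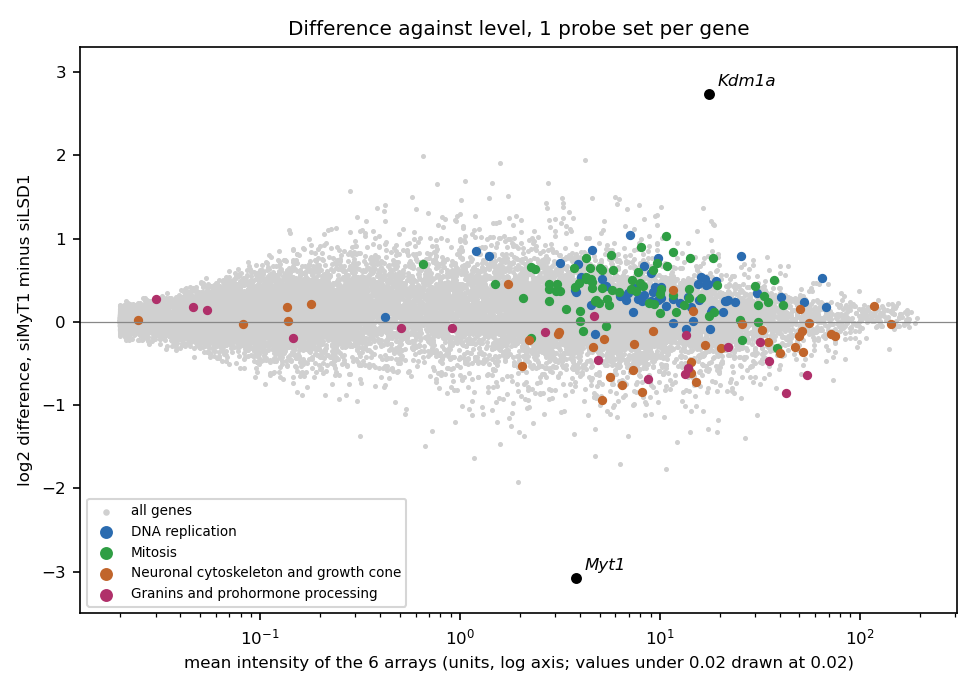
Log2 difference (siMyT1 minus siLSD1) of each gene against its mean intensity over the 6 arrays, on a log axis, with 4 families coloured and the siRNA targets labelled. Most coloured replication and mitosis genes lie above 0, many neuronal cytoskeleton and granin genes lie below it, and Myt1 (-3.08) and Kdm1a (2.73) lie farthest out.

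Of the regulators of entry into S phase and mitosis, several activators and repressors were called higher in siMyT1 than in siLSD1, and most were not called. E2F proteins, with their DP partners, switch on genes for DNA synthesis, while pocket proteins of the Rb family hold them back, and the MuvB complex with B-Myb controls genes of mitosis. Of 21 measured genes of this group 9 were called higher and 0 lower by limma, with 12 higher and 0 lower at an unadjusted p under 0.05. The median log2 difference was 0.28. The counts were 8 and 0 under both other scalings.

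E2f2, an activating E2F, measured 4.88, 5.03 and 5.44 units in siMyT1 and 2.07, 2.09 and 1.65 units in siLSD1. The groups did not overlap, with a log2 difference of 1.32 ± 0.11 (adjusted p = 0.000109), and siControl was above both at 7.32 ± 0.839 units. Mybl2, which encodes B-Myb, measured 3.59, 4.91 and 3.65 units in siMyT1 and 1.47, 1.32 and 1.51 in siLSD1. It differed by 1.37 ± 0.13 (adjusted p = 0.000258), and its siControl level of 3.96 ± 0.430 units lay within the siMyT1 range. E2f6, a repressive E2F, measured 7.26, 7.43 and 6.95 units in siMyT1 and 3.83, 3.61 and 3.66 in siLSD1, a difference of 0.93 ± 0.07 (adjusted p = 9.29e-05). Tfdp2, a DP partner, differed by 0.82 ± 0.09, E2f7 by 0.59 ± 0.11 and the pocket protein gene Rbl2 by 0.63 ± 0.09. E2f1 (0.15), E2f4 (-0.06) and Tfdp1 (0.07) were not called. With the probe sets of each gene averaged, Rbl1 and Lin54 were no longer called (adjusted p = 0.286 and 0.13).

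Around the G1 to S transition 8 of 19 genes were called higher and 2 lower, with 9 and 3 after quantile normalization and 7 and 4 after centring. Without siLSD1 replicate 3, and likewise without siMyT1 replicate 3, 1 gene was called lower. Ccne2, a cyclin of the G1 to S step, measured 5.26, 5.14 and 5.18 units in siMyT1 and 3.34, 2.99 and 2.96 in siLSD1 (log2 difference 0.71 ± 0.08, adjusted p = 0.00062). Cdc25a, the phosphatase that activates cyclin-dependent kinases, differed by 0.81 ± 0.10, and Skp2, which marks the inhibitor p27 for destruction, by 0.62 ± 0.09 with all 6 of its probe sets called higher. Ccnd1, cyclin D1, went the other way. It measured 25.4, 26.5 and 28.9 units in siMyT1 and 40.1, 36.3 and 37.2 in siLSD1, a difference of -0.49 ± 0.07 (adjusted p = 0.00233), against 24.2 ± 0.188 in siControl.

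DNA replication genes formed 1 of the most one-sided families. Of 64 measured genes, 36 (56.2%) were called higher in siMyT1 and 0 lower by limma, with 50 and 0 at an unadjusted p under 0.05. The median log2 difference was 0.32, and the quartiles were 0.24 and 0.46. The counts were 46 higher and 1 lower after quantile normalization and 20 and 1 after centring. Without siLSD1 replicate 3 or siMyT1 replicate 2 there were 23 higher, and without siMyT1 replicate 3 there were 22.

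By role, 11 of 15 origin licensing genes, 19 of 33 fork and helicase genes, 3 of 11 nucleotide supply genes and 3 of 5 genes of histone supply and chromatin assembly were called higher. Cdc6 loads the helicase onto origins, and measured 8.18, 11.5 and 9.21 units in siMyT1 and 4.67, 4.32 and 4.65 in siLSD1. The log2 difference was 1.04 ± 0.11 (adjusted p = 0.000474), and siControl lay between the groups at 7.24 ± 0.175 units. Orc6, of the origin recognition complex, differed by 0.59 ± 0.08. At the fork, Cdc45, part of the helicase, measured 5.40, 6.32 and 6.23 units in siMyT1 and 3.26, 2.90 and 3.404 in siLSD1 (0.87 ± 0.09, adjusted p = 0.000474). Rpa1, which coats single-stranded DNA, measured 29.96, 32.8 and 34.7 units in siMyT1 and 20.1, 16.8 and 19.2 in siLSD1 (0.79 ± 0.08, adjusted p = 0.000434). The siControl levels were 6.07 ± 0.252 units for Cdc45, inside the siMyT1 range, and 26.2 ± 0.324 for Rpa1, between the groups. Asf1b, a histone chaperone, differed by 0.77 ± 0.09, and Rrm2, which makes deoxyribonucleotides, by 0.51 ± 0.07 with all 3 probe sets called. The 28 members not called ranged from -0.15 to 0.36.

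The promoter windows of 2 genes of these families are shown because they hold a match to an E2F site. Windows run from 250 bases before to 50 bases after the RefSeq start of a gene in GRCm38.p6, and positions are counted from the start as 1. The letters searched on both strands were TTTCCCGC, TTTGGCGC, TTTGCCGC and TTTCGCGC, and capitals mark the match. The E2f2 window lies at chr4:136172024-136172323 on the plus strand, with its match at 40, and that of Cdc6 at chr11:98907901-98908200 on the plus strand, with its match at -138.
E2f2: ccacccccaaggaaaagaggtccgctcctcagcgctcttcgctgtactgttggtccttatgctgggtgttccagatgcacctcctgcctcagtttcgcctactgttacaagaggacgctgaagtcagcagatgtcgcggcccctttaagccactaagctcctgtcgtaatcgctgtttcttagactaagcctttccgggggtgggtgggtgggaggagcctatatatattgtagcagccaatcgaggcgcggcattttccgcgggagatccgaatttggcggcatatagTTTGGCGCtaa
Cdc6: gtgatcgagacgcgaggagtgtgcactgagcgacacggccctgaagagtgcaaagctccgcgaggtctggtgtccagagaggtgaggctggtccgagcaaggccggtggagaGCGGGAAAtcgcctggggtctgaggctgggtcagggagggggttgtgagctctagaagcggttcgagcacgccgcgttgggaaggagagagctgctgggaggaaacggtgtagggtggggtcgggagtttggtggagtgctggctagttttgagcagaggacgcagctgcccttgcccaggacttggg

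A window was given for 14368 of the measured genes, and 3.80% of them held an E2F site. Among the E2F, DP, Rb and MuvB genes 40.0% of 15 with a window held one, and among replication genes 32.7% of 55 did. Within the replication family the match did not set the called genes apart: 9 of 29 called members (31.0%) and 9 of 26 others (34.6%) held it. The comparison is a description of letters in these windows.

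As deposited, most measured genes of mitosis were also called higher in siMyT1. Of 77 measured genes 45 (58.4%) were called higher and 1 lower, with a median log2 difference of 0.39 and quartiles of 0.23 and 0.54. After quantile normalization 48 were higher and 3 lower, and after centring 32 and 3. The count higher was 37 without siLSD1 replicate 2 and 32 without siLSD1 replicate 3. It was 33 without siMyT1 replicate 2 and 30 without siMyT1 replicate 3. The single gene called lower was not called without siLSD1 replicate 3 or without siMyT1 replicate 2.

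At the kinetochore and spindle checkpoint 14 of 23 genes were called higher. Mad2l1, the checkpoint protein that delays anaphase, measured 13.9, 14.7 and 14.9 units in siMyT1 and 7.48, 5.997 and 7.60 in siLSD1. It differed by 1.03 ± 0.09 (adjusted p = 0.00017) with no overlap, and siControl stood at 12.04 ± 1.08 units. Cenpq, a centromere protein, differed by 0.90 ± 0.09, and Sgo1, which protects cohesin at centromeres, by 0.77 ± 0.09. Among kinases 8 of 13 were called higher. Bub1, the checkpoint kinase, measured 13.7, 15.9 and 15.2 units in siMyT1 and 9.23, 7.42 and 8.17 in siLSD1 (0.84 ± 0.09, adjusted p = 0.000459).

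Of the cyclins and genes of protein destruction 7 of 9 were called higher. Fbxo5, an inhibitor of the anaphase-promoting complex, measured 17.4, 16.8 and 19.6 units in siMyT1 and 11.7, 9.55 and 10.2 in siLSD1 (0.77 ± 0.09, adjusted p = 0.000646). Pttg1, securin, measured 20.6, 26.3 and 23.7 units in siMyT1 and 14.6, 13.2 and 13.1 in siLSD1 (0.77 ± 0.09, adjusted p = 0.000741). These genes stood differently beside siControl, where Fbxo5 was at 19.2 ± 0.704 units, within the siMyT1 range, and Pttg1 at 12.7 ± 0.552, below both groups. Spindle and cytokinesis genes numbered 10 higher and 1 lower of 18, and chromosome structure genes 6 higher of 14. The 1 gene called lower was Racgap1, a protein of the central spindle needed for cytokinesis, at 35.7, 34.6 and 33.4 units in siMyT1 and 44.5, 41.5 and 43.3 in siLSD1 (-0.32 ± 0.06, adjusted p = 0.00998). It is also not called without the intensity trend in limma. Anln and Cenpk, called as deposited, were not called with their probe sets averaged (adjusted p = 0.0741 and 0.0909).

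The Fbxo5 window is shown for its match to the cell cycle homology region (CHR), the element through which MuvB complexes bind mitotic genes. The letters searched were TTTGAA on both strands. The window lies at chr10:5805416-5805715 on the minus strand, with the match at 4.
Fbxo5: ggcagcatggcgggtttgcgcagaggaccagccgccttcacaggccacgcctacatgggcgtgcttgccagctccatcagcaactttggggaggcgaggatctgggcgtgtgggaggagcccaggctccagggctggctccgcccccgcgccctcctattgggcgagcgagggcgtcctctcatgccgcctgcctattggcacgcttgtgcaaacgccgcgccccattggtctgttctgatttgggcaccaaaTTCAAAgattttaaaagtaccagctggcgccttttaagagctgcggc

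A CHR match was present in 15.7% of all genes with a window and in 57.6% of 66 mitosis genes. Of the called mitosis genes 24 of 39 (61.5%) held it, and of the other members 14 of 27 (51.9%).

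DNA repair genes were higher in siMyT1 in 29 of 71 cases (40.8%), with 0 lower by limma and 43 and 1 at an unadjusted p under 0.05. The median log2 difference was 0.32. The counts were 27 and 0 after quantile normalization and 18 and 1 after centring. They were 18 without siLSD1 replicate 2, 16 without siLSD1 replicate 3, 17 without siMyT1 replicate 2 and 14 without siMyT1 replicate 3, the last with 1 lower.

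The share was highest in homologous recombination, with 12 of 18, followed by 6 of 15 Fanconi genes, 6 of 19 genes of end joining and checkpoints and 5 of 19 of mismatch and excision repair. Brca1, which directs repair by recombination, measured 11.6, 11.5 and 12.7 units in siMyT1 and 8.73, 7.68 and 8.66 in siLSD1 (0.50 ± 0.08, adjusted p = 0.00252), and 3 of its 4 probe sets were called. Msh6, of the mismatch recognition complex, differed by 0.42 ± 0.06, and Fanca, of the Fanconi core complex, by 0.75 ± 0.13. The siControl level of Brca1 (12.2 ± 0.650 units) lay within its siMyT1 range.

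**Figure D2:**
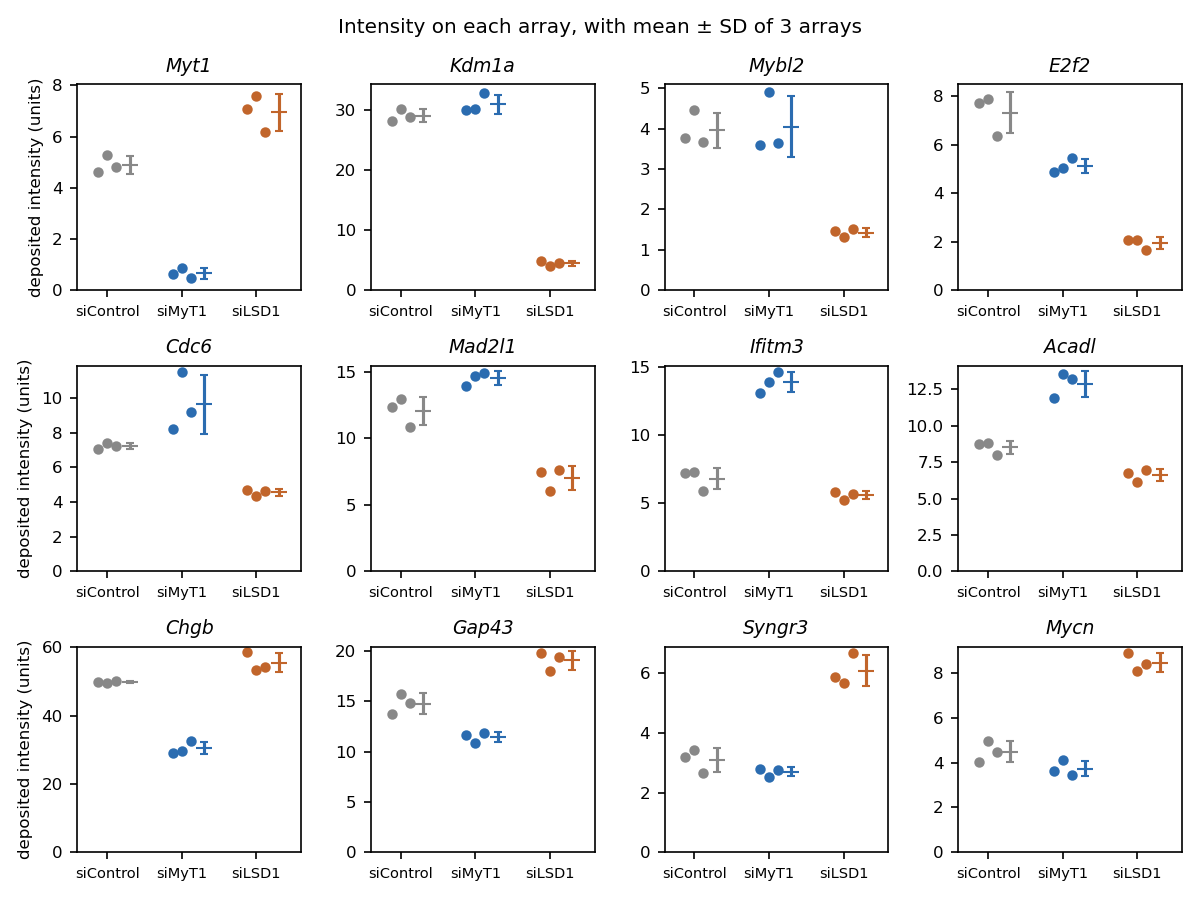
Deposited intensity of 12 genes on each of the 9 arrays, with the mean ± SD of 3 arrays beside the points and every axis starting at 0. For the cell cycle genes the siMyT1 arrays lie above the siLSD1 arrays (Mad2l1 13.9 to 14.9 against 5.997 to 7.60 units), and for Chgb, Gap43, Syngr3 and Mycn they lie below.

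Some families of neuronal and neuroendocrine genes had more members lower than higher in siMyT1, though most members of each family were not called. Markers of the neuroblastoma line were read first, as a check of the labelled cell type. All 15 measured markers had at least 0.2 units on some array, 9 were called lower in siMyT1 and 0 higher by limma, with 11 and 1 at an unadjusted p under 0.05. Their summed level was 274 to 292 units in siMyT1, 360 to 404 in siLSD1 and 326 to 355 in siControl. In bulk samples fewer cells of a type and less RNA per cell cannot be told apart.

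Markers of other cell types moved in both directions. Of 12 fibroblast markers 1 was called higher and none lower, 3 were under 0.2 units on all 6 arrays, and the sum was 169 to 182 units in siMyT1 and 143 to 156 in siLSD1, without overlap. Of 8 Schwann cell and glial markers 1 was called in each direction, with sums of 39.5 to 40.9 units in siMyT1 and 48.1 to 53.6 in siLSD1, also without overlap. The 6 melanocyte markers had a smaller sum, which was higher in siMyT1, at 4.595 to 5.42 units against 3.34 to 3.86. Of these markers 1 had a mean of at least 0.5 units and 1 was called higher. Those not called ranged from -0.25 to 0.58. The 6 endothelial markers summed to 1.67 to 2.67 units in siMyT1 and 1.19 to 1.57 in siLSD1, and the 5 leukocyte markers to 0.577 to 1.10 and 0.610 to 0.831, with overlap. Of each of these last 3 lists 2 genes were under 0.2 units on all 6 arrays. The fibroblast, melanocyte and endothelial sums were thus higher on the arrays where the neuroblastoma sum was lower, and their part in the results was not tested. In siControl the fibroblast sum was 143.5 to 158.2 units, overlapping siLSD1, and the glial sum 34.14 to 38.1. The melanocyte sum there was 4.07 to 4.444 units, and the endothelial sum, 0.9326 to 1.799, overlapped both groups.

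Granins and their processing enzymes fill the dense-core vesicles. Of 18 measured genes 8 (44.4%) were called lower in siMyT1 and 0 higher by limma, with 9 and 0 at an unadjusted p under 0.05. The median log2 difference was -0.22. With quantile normalization 9 were lower and with centring 10, and none of these fits called a member higher. Chgb, chromogranin B, measured 29.2, 29.8 and 32.6 units in siMyT1 and 58.7, 53.4 and 54.3 in siLSD1. It differed by -0.86 ± 0.07 (adjusted p = 0.000118), and siControl, at 49.8 ± 0.283 units, was closer to siLSD1. Scg2, secretogranin II, measured 41.7, 40.9 and 44.6 units in siMyT1 and 69.0, 64.6 and 64.8 in siLSD1 (-0.64 ± 0.07, adjusted p = 0.000434), against 50.2 ± 3.03 in siControl. Chga, chromogranin A, differed by -0.55 ± 0.08, Ptprn, a dense-core vesicle membrane protein, by -0.68 ± 0.09, and Pcsk1n, an inhibitor of a prohormone convertase, by -0.62 ± 0.08. Furin, a convertase, differed by -0.46 ± 0.08. Scg5 was not called without siMyT1 replicate 2, and neither it nor Vgf was called without the intensity trend.

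Chgb and Scg2 were the called granin genes whose windows hold a cyclic AMP response element (CRE), searched as TGACGTCA. The Scg2 window also holds a half-site of the repressor REST, searched as TTCAGCACC and GGACAGCGC on both strands. The Chgb window lies at chr2:132781392-132781691 on the plus strand with its CRE at -72. The Scg2 window lies at chr1:79439977-79440276 on the minus strand with its CRE at -68 and the half-site at -7.
Chgb: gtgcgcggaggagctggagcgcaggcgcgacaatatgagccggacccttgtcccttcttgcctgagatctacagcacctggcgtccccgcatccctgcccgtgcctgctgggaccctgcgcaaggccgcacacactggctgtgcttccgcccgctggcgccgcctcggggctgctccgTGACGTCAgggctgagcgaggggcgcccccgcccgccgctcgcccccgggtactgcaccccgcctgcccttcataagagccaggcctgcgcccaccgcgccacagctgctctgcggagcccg
Scg2: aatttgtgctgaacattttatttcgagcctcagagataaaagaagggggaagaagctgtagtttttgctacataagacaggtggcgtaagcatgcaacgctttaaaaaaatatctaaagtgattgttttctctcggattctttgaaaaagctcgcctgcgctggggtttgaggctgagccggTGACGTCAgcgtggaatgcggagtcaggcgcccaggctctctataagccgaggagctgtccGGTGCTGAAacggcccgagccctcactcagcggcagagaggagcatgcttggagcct

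A CRE was present in 2.94% of all genes with a window, in 2 of 7 called granin genes (28.6%) and in 1 of 8 others (12.5%). A REST half-site was present in 1.18% of all genes with a window, in 1 of those 7 and in 1 of those 8.

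Genes of the neuronal cytoskeleton and growth cone were lower in siMyT1 in 15 of 40 cases (37.5%) and higher in 1. The median log2 difference was -0.17. The counts lower and higher were 22 and 1 after quantile normalization and 19 and 0 after centring. Without siLSD1 replicate 3 there were 9 lower, and without siMyT1 replicate 1 there were 2 higher. Gap43, the growth cone protein, measured 11.7, 10.9 and 11.8 units in siMyT1 and 19.8, 18 and 19.4 in siLSD1 (-0.72 ± 0.07, adjusted p = 0.000193). Its siControl level of 14.8 ± 1.002 units lay between the groups. Nsg2, an endosomal protein of neurons, measured 3.36, 3.70 and 3.31 units in siMyT1 and 6.99, 7.01 and 6.40 in siLSD1 (-0.94 ± 0.08, adjusted p = 0.000139). Map1a, a microtubule-associated protein, differed by -0.76 ± 0.12 and Stmn4, of the stathmin family, by -0.66 ± 0.11. Elavl3, a neuronal RNA-binding protein, was the gene called higher (0.39 ± 0.07), and it was not called after centring (adjusted p = 0.101).

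Synaptic vesicle and exocytosis genes gave 16 lower and 6 higher of 68, with a median of -0.09, 23 and 6 after quantile normalization and 25 and 4 after centring. Of vesicle proteins and endocytosis genes 9 of 28 were called lower and 3 higher, and of SNAREs and their regulators 7 of 40 and 3. Syngr3, a synaptogyrin of synaptic vesicles, measured 2.80, 2.53 and 2.77 units in siMyT1 and 5.88, 5.69 and 6.69 in siLSD1. It differed by -1.11 ± 0.09 (adjusted p = 0.000109), and siControl was at 3.10 ± 0.395 units. Dnm1, the dynamin of vesicle recycling, measured 6.33, 6.39 and 5.87 units in siMyT1 and 11.9, 11.4 and 12.02 in siLSD1 (-0.90 ± 0.07, adjusted p = 7.63e-05). Syp and Syngr1, called lower by their brightest probe sets, were not called with probe sets averaged (adjusted p = 0.248 and 0.12).

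Transcription factors of the sympathoadrenal lineage were lower in 7 and higher in 1 of 33 cases, with 10 and 1 after quantile normalization and 9 and 1 after centring. The median log2 difference as deposited was 0.03, so the family as a whole was not lower. Without siLSD1 replicate 3 the counts were 4 and 2. Mycn, the neuroblastoma oncogene, measured 3.62, 4.10 and 3.45 units in siMyT1 and 8.89, 8.06 and 8.37 in siLSD1. It differed by -1.14 ± 0.08 (adjusted p = 7.63e-05), siControl was at 4.49 ± 0.477 units, and averaging its 3 probe sets gave -0.56 with an adjusted p of 0.0796. Phox2a, a determinant of noradrenergic fate, measured 16.2, 17.99 and 16.7 units in siMyT1 and 29.1, 26.1 and 29.0 in siLSD1 (-0.72 ± 0.07, adjusted p = 0.00028). Gata2, another factor of this lineage, differed by -0.69 ± 0.07. Tbx20 was the 1 called higher (0.46 ± 0.08).

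Of 16 genes for making, storing and breaking down catecholamines 2 were called lower and 1 higher, with 3 and 1 after quantile normalization and 2 and 0 after centring, and the median was 0.10. The gene called higher was not called without siLSD1 replicate 2, siMyT1 replicate 2 or siMyT1 replicate 3. Of the genes called lower, Slc18a2, the vesicular monoamine transporter, measured 3.75, 3.98 and 3.68 units in siMyT1 and 10.2, 10.1 and 10.1 in siLSD1 (-1.37 ± 0.07, adjusted p = 1.2e-05). The other, Th, which encodes tyrosine hydroxylase, measured 1.68, 1.73 and 1.81 units in siMyT1 and 3.32, 3.14 and 3.43 in siLSD1 (-0.85 ± 0.10, adjusted p = 0.000603). Both had siControl levels between the groups and nearer to siMyT1, at 4.92 ± 0.110 and 2.15 ± 0.143 units. Of 14 neurotrophin, GDNF and ALK receptors 4 were called lower, and 5 were under each of the other scalings. Ngfr, a neurotrophin receptor, measured 8.80, 10.6 and 10.9 units in siMyT1 and 24.5, 22.0 and 28.2 in siLSD1 (-1.28 ± 0.11, adjusted p = 0.000113). Ret, the GDNF family receptor kinase, differed by -0.76 ± 0.08 and Alk, a receptor kinase mutated in neuroblastoma, by -0.56 ± 0.07.

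Among the other neuronal families, ion channels and receptors for glutamate, GABA and glycine were close to or below the background of 4.67% lower. Axon guidance, adhesion, tubulin and cholinergic genes were above it. Of 35 neural immunoglobulin adhesion genes 6 were lower and 2 higher, 10 and 2 after quantile normalization and 9 and 1 after centring. Cadherins had 5 and 2 of 70, and 6 and 2 under both other scalings. Integrins had 3 and 2 of 24, then 6 and 2 under both. Tubulin genes had 7 and 3 (14.3%) of 21, then 8 and 3, then 7 and 1. Of 25 cholinergic genes 3 were lower under all 3 scalings and 0 higher by limma. Of the channels 25 had a mean of at least 0.5 units, and of the glutamate, GABA and glycine receptors 6. Of 106 voltage-gated ion channel genes 5 (4.72%) were called lower and 2 higher, with 11 and 1 after quantile normalization and 12 and 1 after centring. Without siLSD1 replicate 1, siLSD1 replicate 3 or siMyT1 replicate 3, 2 of the channel genes were lower, and leaving out any array other than siLSD1 replicate 2 left 1 higher. Of 43 receptors for glutamate, GABA and glycine 1 was called lower, under all 3 scalings, and 0 higher by limma, with 3 and 1 at an unadjusted p under 0.05. Axon guidance genes had 8 lower (11.0%) and 2 higher of 73, 13 and 2 after quantile normalization and 13 and 1 after centring. Their median as deposited was 0.02. The 8 were 7 of 31 semaphorins, plexins and neuropilins and 1 of 21 netrins, slits and their receptors, and the ephrins and Eph receptors had none. Without siLSD1 replicate 3 there were 5 lower, and the count higher was 1 without siLSD1 replicate 2, siLSD1 replicate 3, siMyT1 replicate 2 or siMyT1 replicate 3.

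Neuropeptides and peptide receptors had 4 lower (6.35%) and 1 higher of 63, with 5 and 1 after quantile normalization and 6 and 1 after centring. The median of this family as deposited was 0.04. Npy, neuropeptide Y, measured 0.588, 1.10 and 0.613 units in siMyT1 and 2.42, 2.22 and 2.56 in siLSD1 (-1.47 ± 0.20, adjusted p = 0.00144), with siControl at 0.627 ± 0.0843 units. Agtr1a, an angiotensin II receptor, measured 1.75, 2.42 and 1.87 units in siMyT1 and 6.17, 4.91 and 5.11 in siLSD1 (-1.34 ± 0.13, adjusted p = 0.00028), with siControl at 1.71 ± 0.0699. For both genes the siLSD1 arrays were the high ones beside siControl.

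**Figure D3:**
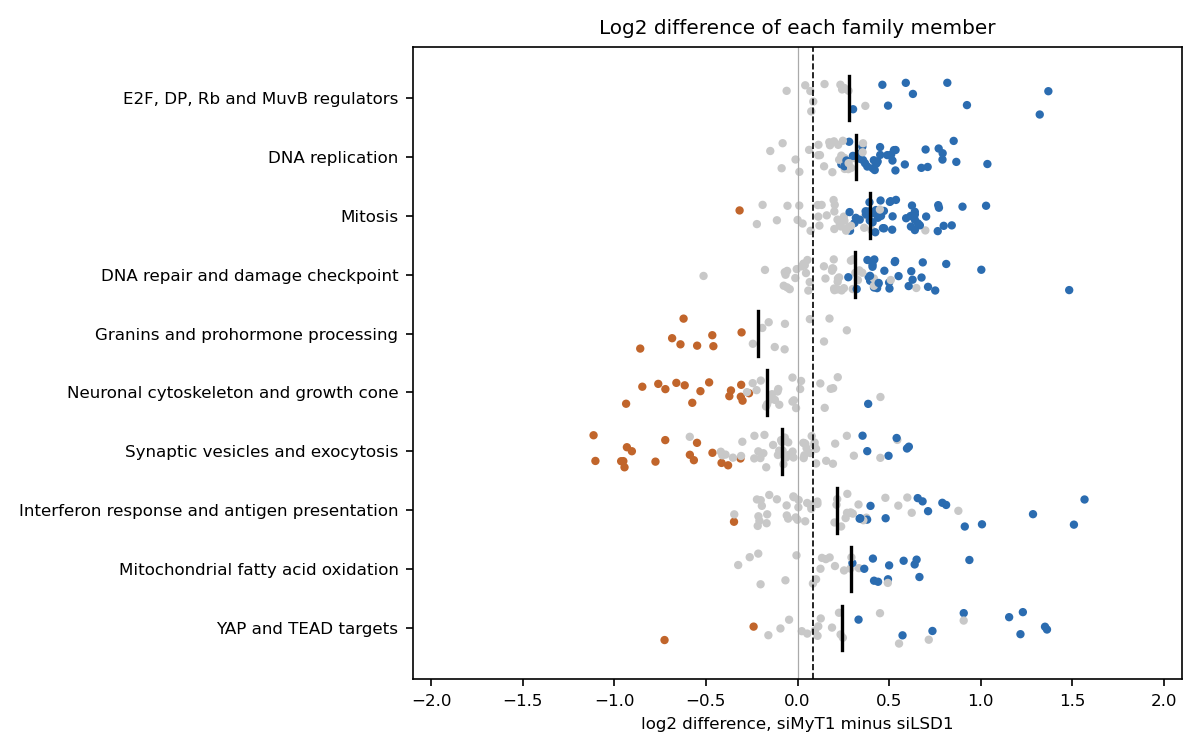
Log2 difference (siMyT1 minus siLSD1) of each measured member of 10 families, with points coloured blue where called higher, orange where called lower and grey where not called. Black bars are family medians and the dashed line is the median of all genes (0.09). Medians of the cell cycle and repair families lie between 0.28 and 0.39, and those of the 3 neuronal families between -0.22 and -0.09.

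Interferon response and antigen presentation genes were higher in siMyT1 in 15 of 61 cases (24.6%) and lower in 1, with 15 and 3 after quantile normalization and 11 and 3 after centring. The median was 0.22. There were 9 higher without siMyT1 replicate 2 and 8 without siMyT1 replicate 3, and 2 lower without siLSD1 replicate 2. Ifitm3, an antiviral membrane protein, measured 13.1, 13.9 and 14.6 units in siMyT1 and 5.81, 5.25 and 5.67 in siLSD1 (1.29 ± 0.07, adjusted p = 1.49e-05), and siControl was at 6.82 ± 0.771 units. Herc6, an interferon-induced ligase, measured 2.40, 2.93 and 2.69 units in siMyT1 and 0.861, 0.675 and 0.897 in siLSD1 (1.51 ± 0.14, adjusted p = 0.00023), with all 4 probe sets called. Cxcl10, a chemokine, was dim in both groups, at 0.332, 0.699 and 0.536 units in siMyT1 and 0.0339, 0.0185 and 0.0645 in siLSD1 (1.57 ± 0.22, adjusted p = 0.00166). Stat3 was the 1 called lower (-0.35 ± 0.06), and it and Eif2ak2 were not called with probe sets averaged (adjusted p = 0.364 and 0.067).

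The Ifitm3 window is shown for its pair of matches to the core of the interferon-stimulated response element, searched on both strands as TTTC and TTTC with any 2 bases between them. It lies at chr7:141010695-141010994 on the minus strand, with the matches at 3 and 20.
Ifitm3: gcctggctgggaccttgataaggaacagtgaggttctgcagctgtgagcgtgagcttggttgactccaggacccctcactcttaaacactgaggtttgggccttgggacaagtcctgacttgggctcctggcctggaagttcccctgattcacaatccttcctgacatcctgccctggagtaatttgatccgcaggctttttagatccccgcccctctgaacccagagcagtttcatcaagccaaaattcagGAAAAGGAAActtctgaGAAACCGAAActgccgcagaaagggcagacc

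The core was present in 3.64% of all genes with a window and in 43.8% of 48 interferon and antigen presentation genes. Of the called members 5 of 14 (35.7%) held it, and of the others 16 of 34 (47.1%).

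**Figure D4:**
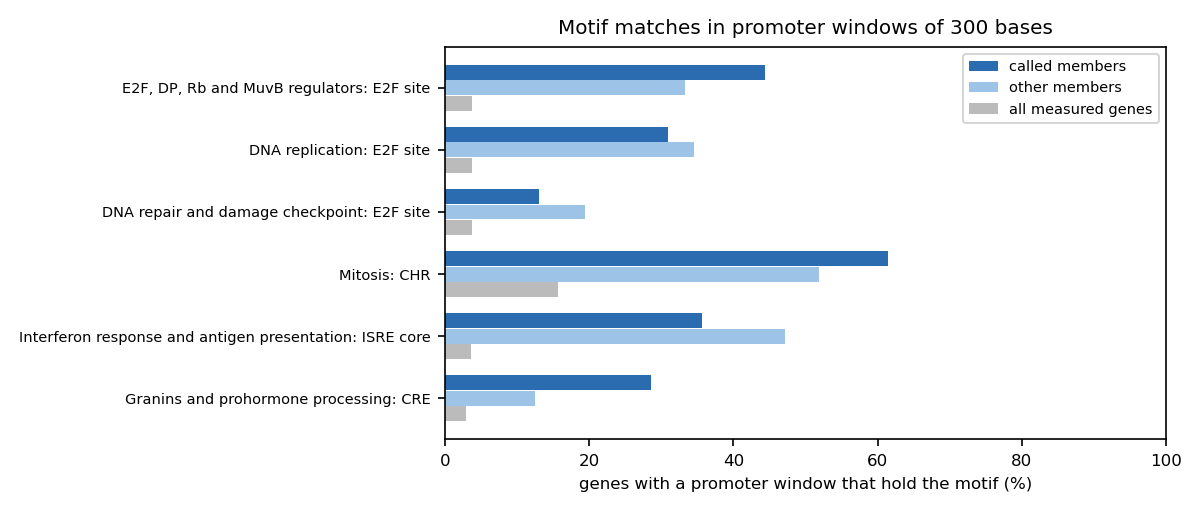
Percent of genes whose promoter window holds the named motif, for called members of each family, other members of the family and all measured genes. Each family is above all measured genes, while called and other members lie close together for the E2F site in DNA replication (31.0% and 34.6%).

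Enzymes that oxidise fatty acids in mitochondria were higher in 12 of 30 cases (40.0%), with 0 lower by limma and 17 and 2 at an unadjusted p under 0.05. The median was 0.29. After quantile normalization 13 were higher and 3 lower, and after centring 7 and 3, and without siLSD1 replicate 2 there was 1 lower. Acadl, the long-chain acyl-CoA dehydrogenase, measured 11.9, 13.5 and 13.2 units in siMyT1 and 6.72, 6.14 and 6.97 in siLSD1 (0.94 ± 0.08, adjusted p = 0.000117). Hadh, a later enzyme of the cycle, measured 51.8, 52.1 and 58.4 units in siMyT1 and 36.3, 32.0 and 33.7 in siLSD1 (0.67 ± 0.08, adjusted p = 0.000639), with all 3 probe sets called. The siControl levels were 8.51 ± 0.440 units for Acadl, between the groups, and 34.1 ± 0.318 for Hadh, within the siLSD1 range.

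Of 28 genes of YAP and TEAD, the transcriptional arm of the Hippo pathway, 9 (32.1%) were called higher and 2 lower, with a median of 0.24. The counts were 10 and 2 after quantile normalization and 9 and 2 after centring, and with any single array left out 1 gene was lower. Wwtr1, which encodes the coactivator TAZ, measured 21.6, 24.4 and 25.4 units in siMyT1 and 9.08, 9.24 and 9.01 in siLSD1 (1.36 ± 0.07, adjusted p = 1.44e-05), with all 3 probe sets called and siControl at 13.2 ± 0.972 units. Amotl2, an inhibitor of YAP, differed by 1.22 ± 0.13, and Axl, a receptor kinase, by 1.16 ± 0.16. Fjx1, called lower, was not called with probe sets averaged (adjusted p = 0.111), and Tead1, called higher, was not called after centring (adjusted p = 0.252). A separate list of p53 targets and Gadd45 genes had 8 higher (33.3%) and 1 lower of 24. The counts were 9 and 2 after quantile normalization and 3 and 2 after centring, and 3 to 9 were higher without 1 array. In that list Gadd45a, a stress-induced growth arrest gene, measured 11.3, 11.9 and 12.1 units in siMyT1 and 5.12, 4.99 and 4.58 in siLSD1 (1.23 ± 0.07, adjusted p = 1.55e-05), and siControl was at 5.53 ± 0.405.

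Many of the largest differences lay outside these families. Gpr12, an orphan receptor, measured 0.700, 0.779 and 0.608 units in siMyT1 and 3.19, 3.27 and 3.11 in siLSD1 (-1.93 ± 0.13, adjusted p = 4.12e-05). Nap1l5, an imprinted gene, measured 2.66, 2.85 and 3.10 units in siMyT1 and 10.2, 9.45 and 9.79 in siLSD1 (-1.71 ± 0.08, adjusted p = 1.07e-05), and siControl lay between at 5.78 ± 0.298. Egr1, an immediate early transcription factor, measured 5.49, 9.87 and 5.29 units in siMyT1 and 1.64, 1.56 and 1.49 in siLSD1 (1.95 ± 0.20, adjusted p = 0.000359). Klf4, a Kruppel-like factor, differed by 1.27 ± 0.07 and Pcgf5, a Polycomb subunit, by 1.42 ± 0.10.

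Among the 15 largest differences toward siMyT1 were dim genes whose siControl mean lay below the siMyT1 range. Il15ra, the interleukin 15 receptor, measured 0.947, 1.24 and 1.29 units in siMyT1 and 0.110, 0.134 and 0.184 in siLSD1 (1.99 ± 0.19, adjusted p = 0.000283), with siControl at 0.505 ± 0.0545. Tnnt2, cardiac troponin T, measured 2.02, 3.56 and 2.34 units in siMyT1 and 0.471, 0.651 and 0.498 in siLSD1 (1.91 ± 0.21, adjusted p = 0.000471), with siControl at 0.937 ± 0.240. Mr1, which presents antigen, differed by 1.69 ± 0.17, Insl6, a peptide of the insulin and relaxin family, by 1.66 ± 0.18, and Anxa1, annexin A1, by 1.65 ± 0.20, and their siControl means of 0.470, 0.683 and 0.349 units were all under 1 unit. Lama2, a laminin chain, differed by 1.502 ± 0.27. In the brighter genes that follow the siControl mean was nearer to siMyT1 than to siLSD1. Pdgfc, a growth factor of the PDGF family, measured 4.16, 4.15 and 4.64 units in siMyT1 and 1.48, 1.09 and 1.14 in siLSD1 (1.66 ± 0.12, adjusted p = 8.05e-05), with siControl at 3.19 ± 0.339. Slc35f5, a solute carrier, measured 6.54, 6.90 and 7.03 units in siMyT1 and 2.17, 2.28 and 2.50 in siLSD1 (1.48 ± 0.08, adjusted p = 1.49e-05), with siControl at 6.80 ± 0.337. Capn6, of the calpain family, differed by 1.502 ± 0.09, and Adat2, a tRNA adenosine deaminase subunit, by 1.49 ± 0.13.

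Among the 15 largest toward siLSD1, Ampd3, an AMP deaminase, measured 6.19, 6.77 and 6.43 units in siMyT1 and 18.8, 17.1 and 17.7 in siLSD1 (-1.44 ± 0.07, adjusted p = 1.07e-05), with siControl at 8.64 ± 0.358. Tesc, the calcium-binding protein tescalcin, measured 13.5, 15.2 and 15.005 units in siMyT1 and 40.5, 37.0 and 38.5 in siLSD1 (-1.40 ± 0.07, adjusted p = 1.2e-05), with siControl at 19.1 ± 0.381. Clu, clusterin, differed by -1.62 ± 0.11 with all 4 probe sets called, and Pirt, a regulator of ion channels in sensory neurons, by -1.63 ± 0.17. Disp2, of the Dispatched family, differed by -1.32 ± 0.06, Adgra1, an adhesion receptor, by -1.49 ± 0.26, and Mapk10, a kinase of the JNK family, by -1.32 ± 0.21. Arhgap26, a GTPase-activating protein, differed by -1.37 ± 0.11 and was not called with its 4 probe sets averaged.

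Within the general machinery of RNA and protein, mitochondrial ribosomal proteins and splicing factors gave splits that turned with the scaling. Mitochondrial ribosomal proteins had 15 higher and 3 lower of 76 as deposited, 19 and 7 after quantile normalization and 1 and 7 after centring. Splicing factors had 15 and 4 of 86, then 33 and 8, then 3 and 7. Both fell to 5 or fewer higher without siLSD1 replicate 3, siMyT1 replicate 2 or siMyT1 replicate 3, and mitochondrial ribosomal proteins to 8 without siLSD1 replicate 2. Cytosolic ribosomal proteins had 0 higher and 1 lower of 48 by limma, with 3 and 2 at an unadjusted p under 0.05, and 1 and 1 were called after quantile normalization and 0 and 2 after centring. The gene called lower was not called without siMyT1 replicate 1 or siMyT1 replicate 2. Ribosome biogenesis genes had 13 higher (24.1%) and 0 lower of 54 by limma, with 22 and 0 at an unadjusted p under 0.05. The counts were 16 and 0 after quantile normalization and 5 and 1 after centring. Nuclear pore genes had 15 (26.8%) and 2 of 56, then 17 and 4, then 5 and 2. Proteasome subunits had 11 (23.4%) and 1 of 47, then 16 and 2, then 3 and 2. With 1 array left out these 3 families fell to as few as 3, 5 and 3 higher. The E2F, G1 to S, replication, mitosis and repair families likewise kept more members higher than lower under all 3 scalings. The granin, cytoskeleton and synaptic families kept more lower than higher. Kinesin motors had 5 higher and 5 lower of 37 as deposited, 7 and 5 after quantile normalization and 3 and 5 after centring. Histone genes had 3 and 2 of 25, then 4 and 2, then 1 and 2.

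**Figure D5:**
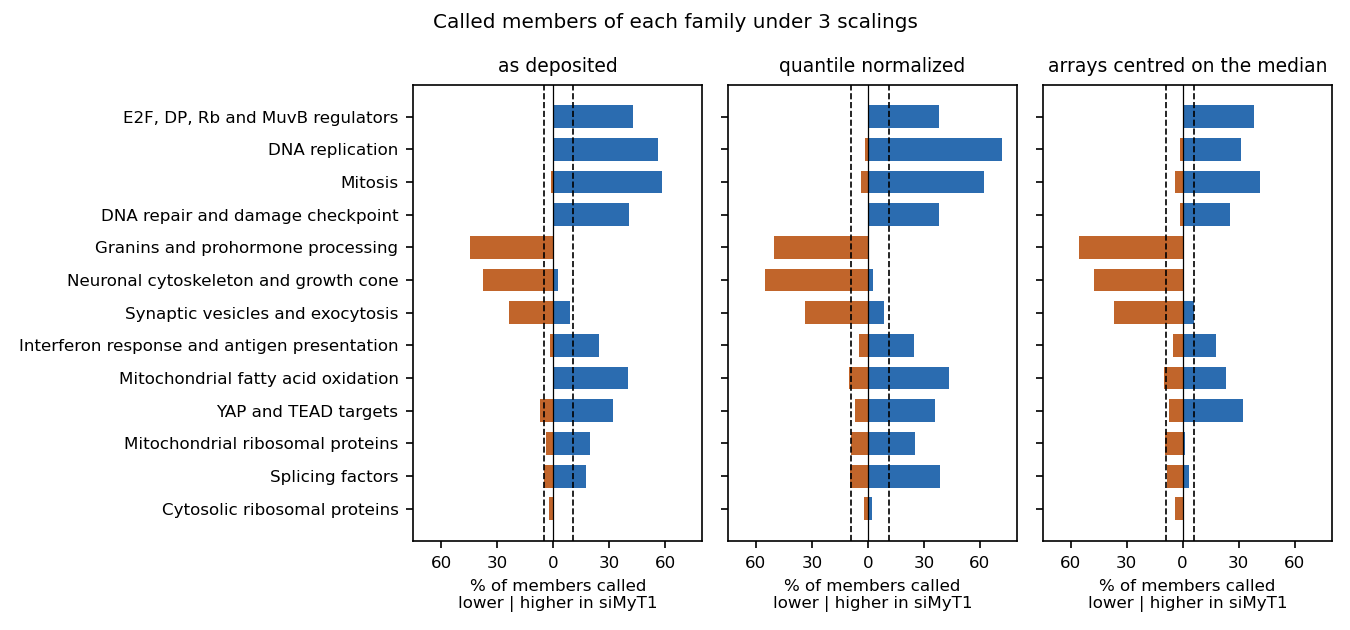
Percent of members called higher (blue, to the right) and lower (orange, to the left) in siMyT1 for 13 families under 3 scalings, with dashed lines at the share of all genes called. The mitochondrial ribosomal and splicing bars change side after centring, and the replication, mitosis and granin bars do not.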

How the data were processed

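Total RNA of Neuro2a cells was measured on 1-colour arrays, per the labels, and the deposited series values are intensities on a linear scale. How the authors summarised, background-corrected and scaled them is not given in the sources used here. Probe sets were named from the array platform's annotation. Of 45101 probe sets, 34945 had 1 symbol, 932 had several and were left out, and 9211 were not listed.

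Deposited intensities were converted to log2 values after adding 0.2 units, with no further normalization. The 3 siMyT1 and 3 siLSD1 arrays were compared in limma 3.58.1 (R 4.3.3) with variance moderated along intensity (degrees of freedom 4 residual, 5.83 prior). Tests were two-sided, with Benjamini-Hochberg adjustment and a threshold of 0.05. An exact permutation test of 3 against 3 arrays cannot go below p = 0.1. Whether replicates were separate cultures is not labelled, so p-values reflect only the spread between these samples, which may be technical, and the number of arrays limits the precision. Log2 values correlated at 0.991 to 0.994 within groups and 0.984 to 0.989 between them. On simulated arrays with 34945 probe sets the fit recovered 60% of changes of 1.5-fold and 92% of changes of 2-fold, with 3 unchanged probe sets called. The 200 changed genes were drawn from brighter genes only, so these shares do not hold for dim genes. The simulated noise was independent between probe sets, with no shift of whole arrays. The 3 false calls therefore do not cover calls that move with the scaling.

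The comparison and the gene families were chosen with earlier results of these data known. Families are described by counts and medians without a test of the list. Genes are named by rule: the siRNA targets, the 15 largest differences per direction, and up to 8 called members with the smallest adjusted p in families with a clear majority direction, or 4 in others. Exceptions are the genes listed as not called and those said to be named after their values were seen. A gene that the rule gives among the repair genes is not reported here, and of the members the rule gives in each family only some are described. Promoter windows are RefSeq sequence of GRCm38.p6. Windows were picked, after the matches were seen, among called genes that hold the motif. Alternatives were quantile normalization, median centring, pseudocounts of 0.05 and 0.6 units, a minimum of 0.5 units, other treatments of probe sets and variance, all 9 arrays, a replicate block, and leaving out each array.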

Additional observations from a re-analysis of the deposited data

How the results depend on the processing

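Genes called higher numbered 989 to 2166 and lower 506 to 852 when 1 array was left out. Median centring gave 1073 higher and 1608 lower, no intensity trend 1175 and 516, and quantile normalization 1684 lower. None of the 10 family medians given below changed sign in any fit. Other medians did turn: centring gave -0.03 for mitochondrial ribosomal proteins, -0.10 for sympathoadrenal factors, -0.04 for catecholamine genes and -0.06 for the LSD1 complex, and quantile normalization gave -0.07 for sympathoadrenal factors and -0.003 for the LSD1 complex. After median centring the medians were 0.14 for E2F, DP, Rb and MuvB, 0.18 for replication, 0.26 for mitosis, 0.18 for repair, -0.35 for granins, -0.30 for the neuronal cytoskeleton, -0.22 for synaptic vesicles, 0.081 for interferon, 0.16 for fatty acid oxidation and 0.11 for YAP and TEAD. Quantile normalization gave 0.18 for E2F, 0.21 for repair, -0.27 for granins, -0.23 for the cytoskeleton and -0.17 for synaptic vesicles. Leaving out dim probe sets gave -0.38 for granins, -0.22 for the cytoskeleton, -0.19 for synaptic vesicles and 0.33 for YAP. A pseudocount of 0.05 gave -0.28 for granins, -0.18 for synaptic vesicles and 0.38 for YAP, and 0.6 gave 0.12 for interferon. Averaged probe sets gave -0.16 for granins and 0.12 for interferon. The causes were not tested.

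With 1 array left out the medians ran from 0.25 to 0.37 (E2F), 0.28 to 0.37 (replication), 0.34 to 0.45 (mitosis), 0.24 to 0.36 (repair), -0.28 to -0.21 (granins), -0.21 to -0.12 (cytoskeleton), -0.14 to -0.05 (synaptic vesicles), 0.12 to 0.24 (interferon), 0.24 to 0.33 (fatty acid oxidation) and 0.24 to 0.33 (YAP). Of 3 named genes that turned, Kif1b (0.11) and Nup210 (0.059) did so with probe sets averaged, and Acta2 (-0.027) without the probe sets marked as able to cross-hybridise. Of the 2751 called genes, 1312 were called in each fit without 1 array.

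Arrays of the same number showed little pairing. Over probe sets with a mean of at least 0.5 units their deviations from the group means correlated at 0.05, 0.13 and 0.00. Arrays of different numbers gave -0.10 to 0.06, so the pair of replicate 2 was the highest. With the replicate block 1351 genes were higher and 632 lower. Dim probe sets limit the comparison, since differences near 0.2 units are compressed.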

Other observations

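Genes of the LSD1 complex and its recruiting repressors did not go 1 way. Of 28 measured, 9 were called higher in siMyT1, Kdm1a included, and 5 lower. Without 1 array the counts ran from 4 to 7 higher and from 2 to 4 lower, and after quantile normalization they were 7 and 6 and after median centring 3 and 5. Scrt1, a neuronal repressor, measured 1.15, 1.42 and 1.41 units in siMyT1 and 3.45, 3.18 and 3.31 in siLSD1 (log2 difference -1.21 ± 0.11, adjusted p = 0.00023 from limma). Rest, the repressor of neuronal genes outside neurons, measured 2.76, 3.09 and 2.94 units in siMyT1 and 1.89, 1.77 and 1.83 in siLSD1 (0.62 ± 0.10, adjusted p = 0.00323), and was not called with its probe sets averaged (adjusted p = 0.404).

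The ATP synthase gene Atp5mpl, read by 1 probe set, measured 4.15, 5.38 and 4.82 units in siMyT1 and 15.5, 16.9 and 17.6 in siLSD1 (-1.76 ± 0.10, adjusted p = 1.44e-05), with siControl at 17.6 ± 1.64 units. The respiratory chain as a family had 5 higher and 6 lower of 88 as deposited, 7 and 17 after quantile normalization and 1 and 11 after centring, and from 1 to 7 higher and from 2 to 6 lower without 1 array. Among 10092 probe sets outside the single-symbol set, 130 were called higher and 86 lower.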
